A study of Mus musculus with 30 samples.

Results

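Retinas of E168d2/+ mice were set against WT retinas at postnatal day 10 (P10), with 3 RNA-seq libraries in each group, 6 of the 30 libraries of the series. A gene was included if it reached 5 CPM (reads on a gene per 1e6 reads counted on genes in that library) in all 3 libraries of either group, which held for 12049 of the 12573 genes in the deposited table. E168d2/+ mice are heterozygous for a knock-in deletion that begins in the glutamate codon of Crx for which the allele is named and shifts its reading frame, and their other Crx allele is intact. WT mice carry 2 intact alleles, and all lines were on the C57BL6/J strain. Each library was a pool of 4 retinas from a male and a female mouse, so a replicate is a pool and p-values measure the spread between pools. The allele is in the germline and is not limited to a cell type. The methods name littermates as the source of WT retinas at P21 but give no source for those at P10. For comparison, E168d2neo/+ mice (1 mutant allele that retains a neo cassette and gives less of the mutant product), E168d2/d2 mice (both alleles mutant) and E168d2/+ and WT mice at P21 were used, with 3 libraries each.

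CRX is a homeodomain transcription factor of rod and cone photoreceptors, the light-sensing cells of the retina, and acts with the rod factor NRL on many photoreceptor genes. In the phototransduction cascade a visual pigment activates the G protein transducin, transducin activates a phosphodiesterase that removes cyclic GMP, and channels gated by cyclic GMP close. Rods and cones use separate genes for most of these steps. Mouse photoreceptors extend their outer segments, the compartment that holds the cascade, in the weeks around P10, and connect at their synapses to bipolar and horizontal cells in the same period.

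Crx lies on mm9 chr7:16451296-16465317 on the minus strand and has 4 exons, and the codon for which the E168d2 allele is named is at chr7:16453525-16453527 in exon 4. The stretch around the codon shows where the mutant frame begins. It covers 63 bases of the reference coding sequence (mm9 chr7:16453495-16453557), with that codon in capitals.
Crx around the codon: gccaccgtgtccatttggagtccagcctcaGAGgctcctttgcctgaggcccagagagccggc
The labels name the deletion but not the reads that carry it, and counts on Crx are summed over both alleles. Crx was at 1539, 1601 and 1481 CPM in WT and 2175, 2095 and 2277 CPM in E168d2/+. All 3 E168d2/+ libraries were above all 3 WT libraries (log2 ratio 0.50, SE 0.06, FDR 0.000146), a difference under the fold limit used here.

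Estimated reads on genes were 13.9 to 17.1 M in WT and 15.9 to 21.1 M in E168d2/+, so 5 CPM stood for 69.5 to 105 reads and 3 reads for 0.142 to 0.216 CPM. The estimate takes the smallest CPM value of a library as 1 read (2 or 3 reads in some libraries). E168d2/+ replicate C stood apart. It held 3530 CPM of 9 lens crystallins, structural proteins of the lens, while WT libraries held 4.96 to 8.82 CPM and E168d2/+ replicates A and B 6.73 and 7.95 CPM. The 9 crystallins were the genes at 10 times or more every other library of both groups in replicate C, and 0 of the 9 entered the test. The alpha crystallin Cryaa was at 1562 CPM in replicate C and at most 1.46 CPM elsewhere among these libraries. The table holds 11 lens genes, of which 2 were tested and 0 called. The lens gene Cryab was at 30.97, 27.7 and 27.6 CPM in WT and 39.6, 39.9 and 376 CPM in E168d2/+. Tdrd7, which is also expressed in retina, was at 350.2, 344 and 339.8 CPM in WT and 224, 224 and 209.6 CPM in E168d2/+. Of the 190 called genes reported here, 24 were no longer called without replicate C. Values without it are given beside some of the results that it moved, and not beside all. In E168d2/d2, Xist was at 1799, 3737 and 2.96 CPM and the Y-linked Ddx3y at 43.9, 0 and 78.7 CPM, so replicates B and C do not show the pooling of both sexes, whereas all 6 libraries of E168d2/+ and WT at P10 did.

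The difference between E168d2/+ and WT was tested in each gene on log2(CPM + 0.1) with limma, and a gene was called where the false discovery rate (FDR) did not exceed 0.05 and the fold change was 2 or more. The log2 scale with 0.1 CPM added understates the change of low genes. Of all genes, 191 (1.59%) were called, 131 lower (1.09%) and 60 higher (0.498%) in E168d2/+. By FDR alone, 1148 genes (9.53%) were lower and 1472 (12.2%) higher, and the median log2 ratio over all tested genes was 0.04. The total of 2620 by FDR alone was 3866 without E168d2/+ replicate C, 1535, 1671 and 1532 without WT replicates A, B and C, and 1736 under the replicate block, so statements by FDR alone rest on single libraries more than the calls do. All 3 E168d2/+ libraries lay below all 3 WT libraries in 16.5% of genes and above them in 25.1%. The called losses reached further from 0 than the called gains, with fitted log2 ratios down to -6.50 for Pax7 and up to 3.65 for Col16a1. The fold limit runs through a continuous range. Just inside it stood Ubxn11 (-1.001), Nrm (-1.01) and Scarb1 (-1.01), of which Ubxn11 (-0.96) and Scarb1 (-0.92) were under the limit without E168d2/+ replicate C and Nrm (-0.97) without replicate B, and just outside it Fam161a, a ciliary gene of photoreceptors (-0.997), Hist3h2a (0.99) and the lipid flippase Atp8a2 (-0.99).

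**Figure D1:**
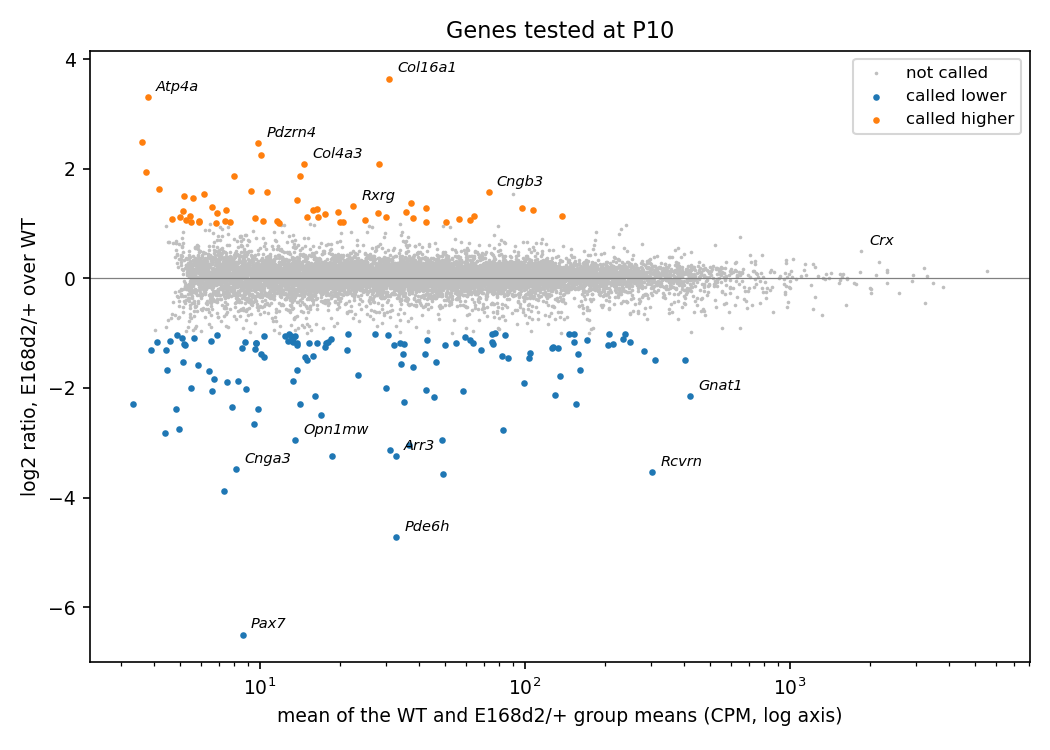
Genes tested in E168d2/+ against WT at P10, by their mean level (CPM, log axis) and log2 ratio; blue points are called lower, orange points called higher and grey points not called. The lower calls reach -6.50 (Pax7) and the higher calls 3.65 (Col16a1), and named phototransduction genes lie among the lowest.

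Cone phototransduction genes had the lowest median among the lists grouped by role here. Of 11 tested genes, 7 were called lower and 1 higher, against 1.09% and 0.498% of all genes. The median log2 ratio was -1.38 against 0.04 for all genes. The medians of the list in E168d2/+ replicates A, B and C were -1.38, -1.37 and -1.38, nearly equal. Pde6h encodes the inhibitory subunit of the cone phosphodiesterase (mm9 chr6:136903044-136917386, plus strand). Pde6h was at 61.2, 61.8 and 65.4 CPM in WT and 2.99, 2.33 and 1.71 CPM in E168d2/+. The E168d2/+ mean was 3.73% of the WT mean (log2 ratio -4.72, SE 0.16, FDR 5.44e-08). Cnga3, a subunit of the cone channel, was at 13.98, 15.03 and 15.996 CPM in WT and 0.996, 1.26 and 1.55 CPM in E168d2/+ (log2 ratio -3.48, SE 0.16, FDR 4.28e-07). The cone arrestin Arr3, which ends the pigment's signal, was at 55.9, 66.1 and 54.7 CPM in WT and 7.73, 5.23 and 5.55 CPM in E168d2/+ (log2 ratio -3.25, SE 0.14, FDR 2.59e-07). In each of these 3 genes the mutant libraries lay far below the lowest WT library.

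Both cone opsins fell. The M opsin Opn1mw was at 25.9, 25.03 and 21.1 CPM in WT and 4.08, 2.77 and 2.40 CPM in E168d2/+ (log2 ratio -2.95, FDR 2.18e-06). The S opsin Opn1sw was at 219.9, 209 and 206 CPM in WT and 48.3, 52.2 and 44.9 CPM in E168d2/+ (log2 ratio -2.13, FDR 2.61e-08), so 22.9% of its WT mean remained against 12.9% for Opn1mw. The catalytic subunit Pde6c fell less than its inhibitory partner Pde6h. It was at 107, 107 and 98.3 CPM in WT and 46.8, 44.5 and 47.6 CPM in E168d2/+ (log2 ratio -1.17, FDR 4.92e-07), with no overlap between the groups. The cone transducin subunits did not move together. The alpha subunit Gnat2 was at 60.8, 60.4 and 60.01 CPM in WT and 23.1, 23.3 and 23.2 CPM in E168d2/+, with values close to each other within each group (log2 ratio -1.38, SE 0.05, FDR 1.63e-07). The gamma subunit Gngt2 was at 82.4, 82.6 and 85.6 CPM in WT and 38.6, 38.8 and 52.8 CPM in E168d2/+ and stayed just under the fold limit (log2 ratio -0.96, FDR 0.000158). Without replicate C, which was the highest of the 3, Gngt2 was called, at -1.11. The beta subunit Gnb3, which ON bipolar cells also use, was higher in E168d2/+ by FDR alone (0.31), as was the exchanger Slc24a2 (0.28).

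Cngb3, the other subunit of the cone channel, rose in E168d2/+. Cngb3 was at 34.9, 40.1 and 35.1 CPM in WT and 112, 109 and 107 CPM in E168d2/+. Every mutant library was above every WT library, and mutant replicates A, B and C were close to each other (log2 ratio 1.57, SE 0.06, FDR 1.84e-07). The 2 subunits of the same channel thus differed in direction, Cnga3 at 8.45% and Cngb3 at 297% of the WT mean. In bulk RNA, fewer cells of a type and less RNA per cell cannot be told apart. That holds for every gene described here.

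**Figure D2:**
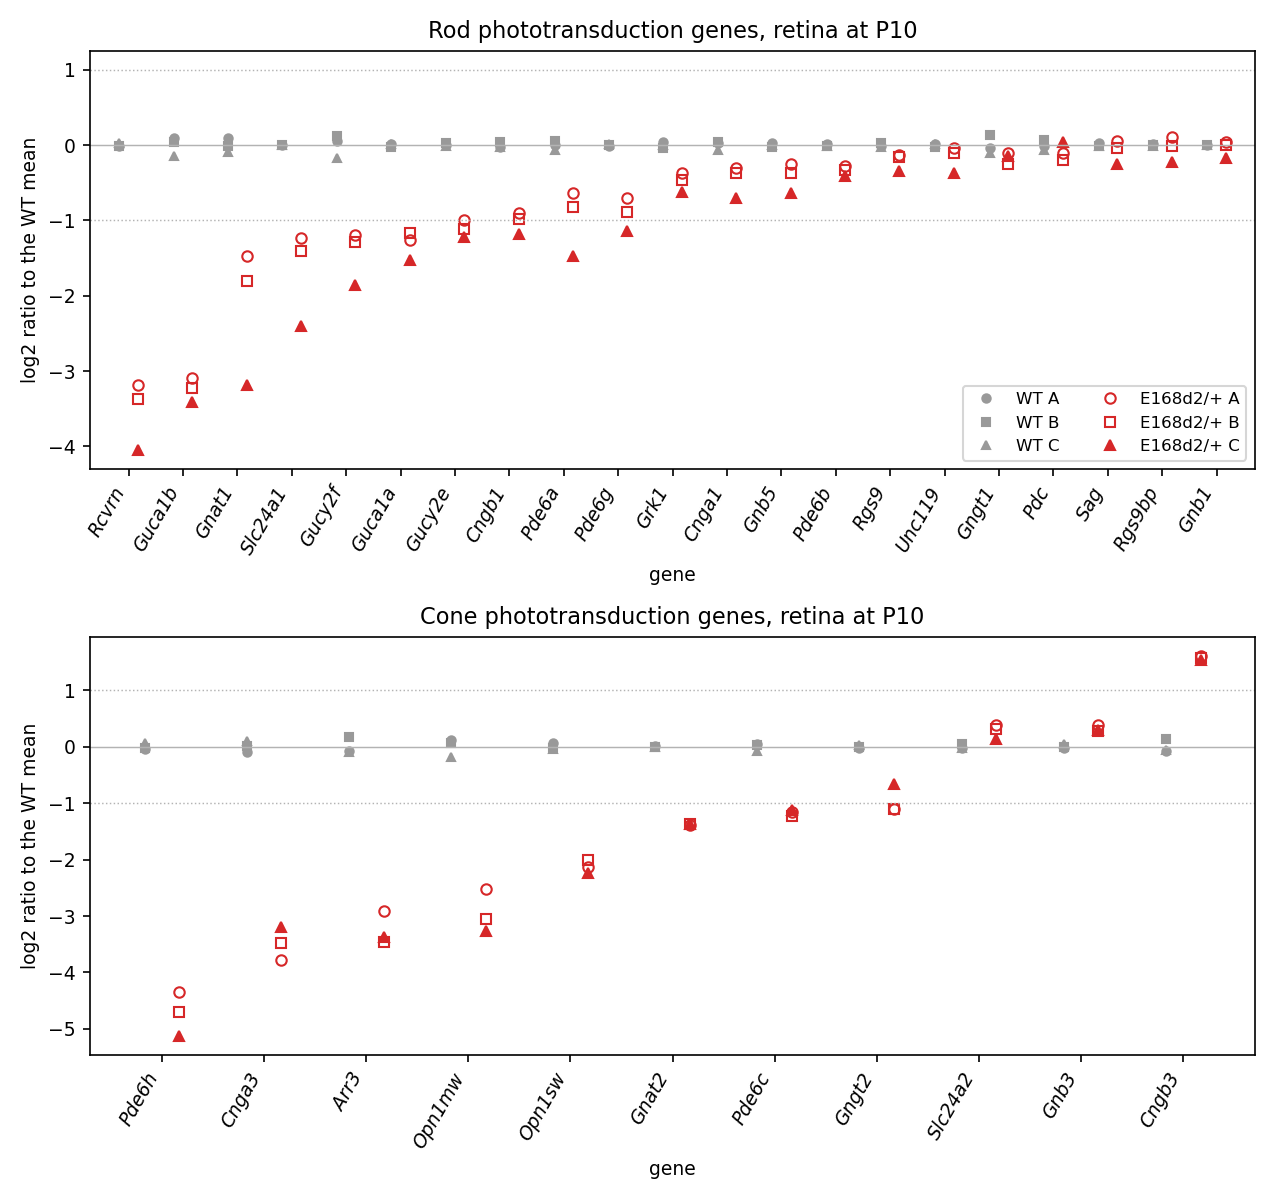
Log2 ratio of each library to the WT mean for rod (upper) and cone (lower) phototransduction genes at P10, ordered by the fitted ratio; grey symbols are WT libraries, red symbols E168d2/+ libraries with replicate C filled, and dotted lines mark a change of 1 on the log2 scale. The rod genes on the left fall furthest in replicate C, whereas the cone genes show a median of -1.38 in replicate C and -1.38 and -1.37 in A and B.

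Rod phototransduction genes ranged from deeply reduced to near WT. Of 21 tested genes, 8 were called lower and 0 higher, 15 were lower by FDR alone, and the median log2 ratio was -0.49. Over all genes 1.09% were called lower and 9.53% were lower by FDR alone. The list was written from general knowledge. Some members, such as Guca1a, Gucy2e, Grk1, Sag and Rgs9, are not among the genes that the study listed as rod-enriched. In bulk RNA their changes cannot be assigned to rods alone. The 2 largest losses were calcium sensors. Rcvrn encodes recoverin, a calcium-binding inhibitor of the kinase that turns off the visual pigment (mm9 chr11:67508828-67516835, plus strand). Rcvrn was at 549.7, 547 and 565 CPM in WT and 60.7, 53.5 and 33.4 CPM in E168d2/+ (log2 ratio -3.54, SE 0.17, FDR 4.92e-07). Guca1b, a calcium-dependent activator of guanylate cyclase, was at 36.2, 35.02 and 30.8 CPM in WT and 3.89, 3.53 and 3.09 CPM in E168d2/+ (log2 ratio -3.25, SE 0.11, FDR 5.18e-08). Its neighbour and relative Guca1a, 1592 bases away on the other strand, was at 30.8, 29.7 and 30.6 CPM in WT and 12.6, 13.5 and 10.5 CPM in E168d2/+ (log2 ratio -1.31, SE 0.10, FDR 8.75e-06). Of the guanylate cyclases that these activators serve, which restore cyclic GMP after light, both fell. Gucy2f was at 130.0, 137 and 111 CPM in WT and 54.8, 51.2 and 34.5 CPM in E168d2/+ (-1.45). Gucy2e was at 318, 324 and 315 CPM in WT and 161, 147 and 137 CPM in E168d2/+ (-1.11).

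In rod transducin only the alpha subunit was called. Gnat1 was at 716, 666 and 626 CPM in WT and 239.8, 191 and 73.5 CPM in E168d2/+ (log2 ratio -2.16, SE 0.33, FDR 0.00142), and replicate C was far below A and B. Without replicate C the log2 ratio of Gnat1 was -1.64. The subunits Gnb1 (-0.04) and Gngt1 (-0.17) did not pass the test, and Gnb1 overlapped with WT. The exchanger Slc24a1, which removes calcium from the rod outer segment, was at 244, 242 and 242 CPM in WT and 103, 91.8 and 45.99 CPM in E168d2/+ (log2 ratio -1.68, SE 0.23, FDR 0.000725). Here too replicate C was the lowest, and the log2 ratio without it was -1.32. Rod channel subunits fell unequally. Cngb1 was at 315, 329.7 and 314 CPM in WT and 171, 162 and 141 CPM in E168d2/+ and was called (log2 ratio -1.02, FDR 4.53e-06), although without replicate C its log2 ratio of -0.94 was under the fold limit. Cnga1 was at 417, 422 and 390.3 CPM in WT and 331, 315 and 251 CPM in E168d2/+, lower by FDR but not by fold (log2 ratio -0.46, FDR 0.00528).

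The rod phosphodiesterase subunits were lower by FDR and not called. Pde6a was at 559, 579 and 534 CPM in WT and 359, 315 and 200.2 CPM in E168d2/+ (-0.98). Pde6g was at 839, 848 and 852 CPM in WT and 520.4, 459 and 384 CPM in E168d2/+ (-0.91). Pde6b was at 1407, 1379 and 1382 CPM in WT and 1151, 1104 and 1045 CPM in E168d2/+ (-0.34). All 3 subunits were below WT in every mutant library, and Pde6b by the least. The kinase Grk1 (-0.49) and the arrestin Sag (-0.08), which act in ending the rod response, stood closer to WT than Pde6a and Pde6g. So did Rgs9 (-0.21), Gnb5 (-0.42) and Rgs9bp (-0.04), members of the complex that turns transducin off. The guanylate cyclases, which restore cyclic GMP after light, were called lower, as given above. Grk1, Rgs9 and Gnb5 were lower by FDR, and Sag and Rgs9bp overlapped with WT. Summed over the list, rod phototransduction genes held 15059 to 15417 CPM in WT, and 12718, 12004 and 10786 CPM in E168d2/+ replicates A, B and C. The list medians of the 3 replicates were -0.37, -0.47 and -0.70, replicate C being the lowest. Without replicate C, 7 of the 21 were called lower.

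Transcription factors of photoreceptors did not move as a group. Of 26 tested, 2 were called lower and 1 higher, against 1.09% and 0.498% of all genes, with a median log2 ratio of -0.02. Nrl, which directs rod fate (-0.13), Nr2e3, which represses cone genes in rods (-0.03), and Otx2, which acts upstream of Crx (0.16), did not pass the test. The nuclear receptor gene Rxrg, which takes part in cone opsin patterning, was at 13.98, 11.004 and 13.8 CPM in WT and 33.01, 33.7 and 29.7 CPM in E168d2/+ and rose in E168d2/+ (log2 ratio 1.31, SE 0.10, FDR 1.47e-05). The lipid-sensing receptor gene Ppara was at 19.3, 18.7 and 16.6 CPM in WT and 9.63, 8.83 and 6.51 CPM in E168d2/+ (log2 ratio -1.14, FDR 0.000307). The rod nuclear receptor gene Esrrb was at 81.6, 79.1 and 75.2 CPM in WT and 50.5, 47.04 and 22.4 CPM in E168d2/+ (log2 ratio -1.06, FDR 0.0119), and replicate C was the lowest. Without replicate C neither was called, at -0.97 for Ppara and -0.69 for Esrrb. By FDR alone Pias3, a cofactor of rod differentiation (-0.74), Rorb (-0.46) and the thyroid hormone receptor Thrb (-0.38) were lower, and Samd7, a photoreceptor repressor (0.61), Prdm1 (0.42) and Neurod1 (0.30) were higher.

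Genes of the photoreceptor synapse and ion channels, taken as a single list, showed losses in 6 of 31 tested and 0 gains. The median was -0.36, with 20 lower by FDR alone. Over all genes 1.09% were called lower and 9.53% were lower by FDR alone. Cabp4, which tunes the calcium channel of the photoreceptor terminal, was at 56.98, 56.5 and 60.1 CPM in WT and 14.6, 13.1 and 9.07 CPM in E168d2/+ (log2 ratio -2.26, SE 0.14, FDR 3.63e-06). Elfn1, an adhesion protein that links rod terminals to bipolar cells, was at 153, 152 and 165 CPM in WT and 38.5, 43.8 and 42.6 CPM in E168d2/+ (log2 ratio -1.91, SE 0.06, FDR 4.27e-08). The mutant means were 21.2% of WT for Cabp4 and 26.5% for Elfn1, with no overlap between the groups. The potassium channel gene Kcnj14 (-1.88), the scaffold gene Mpp4 (-1.33), the chloride channel gene Ano2 (-1.27) and Lrit1, a leucine-rich membrane protein (-1.16), were the other losses. Kcnj14 varied within the mutant group, at 5.41, 3.72 and 1.97 CPM, replicate C being the lowest.

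Outer segment, cilium and inner segment genes held 5 losses and 0 gains among 40 tested, with a median of -0.22. Over all genes 1.09% were called lower and 0.498% higher. The actin-bundling gene Fscn2 was at 16.6, 16.97 and 15.9 CPM in WT and 3.65, 3.09 and 2.61 CPM in E168d2/+ (log2 ratio -2.38, SE 0.13, FDR 1.14e-06). Aipl1, a chaperone of phosphodiesterase, was at 454, 446 and 470.1 CPM in WT and 195, 167 and 129.6 CPM in E168d2/+ (log2 ratio -1.50, SE 0.12, FDR 1.49e-05). The motor protein gene Myo7a (-1.37), the rod-derived cone survival factor Nxnl1 (-1.27) and the centriole gene Mdm1 (-1.02) were also called lower. The disc rim gene Prph2 was at 1635, 1631 and 1604 CPM in WT and 1139.9, 1055 and 879 CPM in E168d2/+ and lower by FDR only (-0.67), while its partner Rom1 (-0.14) and the axoneme gene Rp1 overlapped with WT. Of 14 visual cycle genes, the retinol dehydrogenases Rdh12 (-1.38) and Rdh8 (-1.22) were called lower and the pigment epithelium opsin Rgr (1.27) higher. The retinoid carrier Rbp3 was at -0.44 and lower by FDR only. Of 22 genes of energy and lipid metabolism, the mitochondrial creatine kinase Ckmt1 was the 1 call (-1.45). Ckmt1 was at 153, 147 and 156 CPM in WT and 57.9, 56.6 and 52.5 CPM in E168d2/+, without overlap.

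The sequence before the start of several of these genes is shown because CRX binds the letters TAATCC. The 250 bases before the annotated start were read from mm9, and matches on either strand are in capitals (GGATTA where the match is on the other strand). Rcvrn, Cabp4 and Gnat2 fell. The windows are chr11:67508578-67508827, plus strand for Rcvrn, chr19:4139610-4139859, minus strand for Cabp4 and chr3:107895457-107895706, plus strand for Gnat2.
Rcvrn: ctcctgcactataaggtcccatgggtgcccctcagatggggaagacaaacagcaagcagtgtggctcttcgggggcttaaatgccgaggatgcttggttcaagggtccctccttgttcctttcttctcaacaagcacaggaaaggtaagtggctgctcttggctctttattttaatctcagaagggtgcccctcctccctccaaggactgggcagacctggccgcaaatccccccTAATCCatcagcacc
Cabp4: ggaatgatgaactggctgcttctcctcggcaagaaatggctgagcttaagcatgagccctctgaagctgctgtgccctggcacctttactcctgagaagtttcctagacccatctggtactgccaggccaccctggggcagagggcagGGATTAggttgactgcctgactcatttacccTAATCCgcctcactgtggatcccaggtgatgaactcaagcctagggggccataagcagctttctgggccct
Gnat2: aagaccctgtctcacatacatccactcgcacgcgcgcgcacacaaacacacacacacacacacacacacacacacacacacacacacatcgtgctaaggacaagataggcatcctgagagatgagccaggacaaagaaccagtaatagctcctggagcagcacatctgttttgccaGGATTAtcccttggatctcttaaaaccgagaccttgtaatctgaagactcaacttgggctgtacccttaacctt
The match starts 15 bases before the start in Rcvrn, 102 and 71 in Cabp4 and 74 in Gnat2. TAATCC was found in 21.24% of the 113 windows of genes called lower (24), in 10.91% of the 55 of genes called higher (6) and in 5.67% of the 11441 windows of all tested genes. TGCTGA, letters of the NRL site, was found in 23.01%, 12.73% and 11.69% of the same windows. Both were found in 5.31%, 1.82% and 0.66%, and Rcvrn holds both, TGCTGA starting 8 bases before its start, which overlaps no base of TAATCC. A match is a run of letters and not a measured site, and the shares were not tested.

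Cabp4 and Gpr152, an orphan receptor gene, lie head to head with 174 bases between them on chromosome 19, so the window shown for Cabp4 also spans the start of Gpr152. Both fell by similar amounts. Gpr152 was at 24.4, 22.8 and 23.1 CPM in WT and 5.74, 5.74 and 3.20 CPM in E168d2/+ (log2 ratio -2.28, SE 0.19, FDR 2.42e-05), against -2.26 for Cabp4. The counting notes do not give the strand setting, so reads near the shared boundary cannot be assigned with certainty.

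The largest losses included genes outside the phototransduction lists. Pax7, a paired-box factor known from muscle stem cells and neural crest, was at 16.5, 17.3 and 17.6 CPM in WT and 0.0474, 0.126 and 0.107 CPM in E168d2/+. By the read estimate given above, which was not accepted as whole counts for a count test, the 3 mutant values stand for 1, 2 and 2 reads, against 805 reads in the 3 WT libraries together. The pooled E168d2/+ level was 0.524% of WT, with an exact 95% counting interval of 0.17% to 1.23% that covers counting error only. Tnfrsf8, a receptor of the tumour necrosis factor family, was at 14.4, 14.4 and 12.6 CPM in WT and 1.14, 0.883 and 0.587 CPM in E168d2/+ (log2 ratio -3.88, SE 0.20, FDR 8.98e-07). The alkaline phosphatase gene Alpl was at 91.03, 85.9 and 94.2 CPM in WT and 8.73, 8.01 and 6.08 CPM in E168d2/+ (log2 ratio -3.57, SE 0.12, FDR 4.27e-08). The mutant mean of Alpl was 8.41% of WT, and values were close within each group. Susd3 (-3.12), AI847159 (-3.04), the peptide hormone receptor gene Glp2r (-2.94) and the proton channel gene Otop3 (-1.88) also fell. For Susd3 the mutant values were 8.49, 7.13 and 4.002 CPM, replicate C again the lowest.

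Among the 60 gains, collagen genes appeared more than once. Col16a1, a collagen of the extracellular matrix (mm9 chr4:129725084-129776527, plus strand), was at 5.08, 4.17 and 4.20 CPM in WT and 58.9, 53.2 and 59.3 CPM in E168d2/+ (log2 ratio 3.65, SE 0.10, FDR 1.51e-08). Col4a3 was at 7.96, 3.74 and 5.49 CPM in WT and 22.3, 27.5 and 20.97 CPM in E168d2/+ (log2 ratio 2.08, SE 0.22, FDR 0.00013). Col4a4 was at 3.64, 2.23 and 2.92 CPM in WT and 6.31, 9.46 and 8.86 CPM in E168d2/+ (log2 ratio 1.46, SE 0.20, FDR 0.000696). Col4a3 and Col4a4 lie head to head with 71 bases between them, and with Col4a5 they make a collagen network of basement membranes. Col4a5 was at 25.1, 25.7 and 20.8 CPM in WT and 51.3, 48.1 and 55.1 CPM in E168d2/+ (log2 ratio 1.11, SE 0.09, FDR 1.96e-05). All 3 chains were higher in every mutant library than in any WT library, which held for 25.1% of all genes. Col16a1, Col4a3 and Col4a4 were under 5 CPM in some WT libraries and entered the test only through E168d2/+. No collagen list had been written, so the group was picked out after its values were seen.

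Other gains were in genes of varied roles. Atp4a, known as the proton pump of the stomach, was at 0.564, 0.575 and 0.642 CPM in WT and 6.12, 5.36 and 9.34 CPM in E168d2/+ (log2 ratio 3.30, SE 0.22, FDR 4.39e-06). The ion pump gene Atp13a4 was at 1.19, 0.791 and 1.11 CPM in WT and 6.45, 5.68 and 6.40 CPM in E168d2/+ (log2 ratio 2.49, SE 0.18, FDR 8.52e-06). Both were low in WT, so their ratios depend more on the 0.1 CPM added. The ubiquitin ligase gene Pdzrn4 was at 3.39, 2.37 and 2.92 CPM in WT and 20.7, 18.7 and 11.2 CPM in E168d2/+, replicate C being nearest WT (2.47). The interferon regulatory factor gene Irf5 was at 3.64, 3.52 and 3.21 CPM in WT and 17.3, 17.7 and 15.4 CPM in E168d2/+ (2.25). The guanine exchange factor gene Rgnef (2.08) and the fatty acid transporter gene Slc27a2 (1.87) rose as well.

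Marker lists of the other retinal neurons had medians near WT. Of 16 bipolar, 9 horizontal, 13 amacrine and 14 ganglion cell genes, 0 were called in either direction, against 1.59% of all genes. Their medians were 0.00, -0.09, 0.14 and 0.13. At an unadjusted p under 0.05 with limma, 8, 4, 7 and 6 of these genes passed, against 4370 of all 12049 genes. With no variance trend 0 were called as well. By FDR alone 3 bipolar genes were lower and 3 higher, among them the ON bipolar channel Trpm1 at 336, 333 and 334 CPM in WT and 488, 504 and 343 CPM in E168d2/+ (0.39), whose replicate C was near WT, and the factor Vsx1 (-0.52). In ganglion cells 0 were lower and 5 higher by FDR alone, against 9.53% and 12.2% of all genes. In lists that the study drew up by cell type specificity, 0 of 9 horizontal, 10 bipolar and 9 amacrine genes were called, and 2 of 9 ganglion genes were called higher, Rgr and Ttr, which also stand on the pigment epithelium list and of which 0 were called without E168d2/+ replicate B. The genes of dividing cells summed to 182 to 183 CPM in WT and to 144, 147 and 167 CPM in E168d2/+. By FDR alone 2 of 9 were lower, Kifc1 (-0.87) and the replication licensing gene Mcm5, with a list median of -0.33. Without E168d2/+ replicate C the median was -0.40 and Kifc1 was at -0.60. Top2a (-0.77), Ccnd1 (-0.52), Mki67 (-0.48) and Mcm2 (-0.33) were then also lower by FDR alone. Pcna, Ccna2 and Tyms did not pass. Of all 12125 genes tested without replicate C, 3866 passed by FDR alone.

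Genes of Müller glia, the radial glia of the retina, were higher by FDR alone in 9 of 16 and lower in 0, with a median of 0.26 and 1 call. Over all genes 12.2% were higher and 9.53% lower by FDR alone, and 0.498% were called higher. Aqp4, a water channel of these cells, was at 17.1, 19.3 and 13.7 CPM in WT and 46.7, 43.01 and 27.2 CPM in E168d2/+ (log2 ratio 1.19, SE 0.19, FDR 0.00157). The glutamine synthetase gene Glul was at 507, 455 and 455 CPM in WT and 1011, 919 and 545 CPM in E168d2/+ (log2 ratio 0.76, FDR 0.0155), and replicate C was nearest WT in both. Without replicate C both were called, Aqp4 at 1.43 and Glul at 1.03. Clu (0.64) and Dkk3 (0.40) were higher by FDR alone. The gliosis marker Gfap was at 16.7, 12.9 and 13.7 CPM in WT and 11.4, 12.9 and 13.8 CPM in E168d2/+ and overlapped with WT (-0.19). Of the 9 genes of gliosis and stress and the 9 of microglia, 0 were called with limma. At an unadjusted p under 0.05 with limma, 7 and 7 passed, against 4370 of all 12049 genes. The Müller list summed to 2610 to 2791 CPM in WT and to 3787, 3686 and 2942 CPM in E168d2/+.

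Pigment epithelium and melanocyte genes, which mark the tissue that lies against the retina, had a median log2 ratio of 0.77 in the same comparison. Of 11 tested, 3 were called higher and 0 lower, against 0.498% and 1.09% of all genes, and the 3 calls depended on single libraries. The called genes were Rgr at 14.4, 6.76 and 7.65 CPM in WT and 18.6, 35.3 and 16.2 CPM in E168d2/+ (log2 ratio 1.27, FDR 0.0165), Dct, of melanin synthesis, at 34.6, 20.9 and 26.6 CPM in WT and 51.6, 80.8 and 38.8 CPM in E168d2/+ (log2 ratio 1.02, FDR 0.0139), and Ttr, the thyroid hormone carrier, at 50.1, 27.3 and 36.02 CPM in WT and 79.2, 148 and 44.7 CPM in E168d2/+ (log2 ratio 1.14, FDR 0.0457). The Ttr groups overlapped, and in all 3 genes replicate B was the highest. Summed over the 14 genes in the table, the list was at 204, 129 and 154 CPM in WT and at 288, 454 and 204 CPM in E168d2/+ replicates A, B and C, and no gene of the list was at 0. Without replicate C, 8 of 12 were called higher, whereas 0 were called without E168d2/+ replicate B, where Rgr was at 0.93, Dct at 0.74 and Ttr at 0.70 (FDR 0.0916), and 0 without WT replicate B or C. Whether tissue beside the retina entered the pools to different extents was not tested, and these values stand beside the gains described above. Among the 5 blood, 11 vessel, 4 ciliary body, cornea and muscle, and 13 clock genes 0 were called with limma. At an unadjusted p under 0.05 with limma, 3, 3, 4 and 10 passed, against 4370 of all 12049 genes. By FDR alone 7 of 13 clock genes were higher, against 12.2% of all genes. Examples were Per3 (0.66), Hlf (0.65) and Dbp (0.59), again with replicate C nearest WT in these 3.

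**Figure D3:**
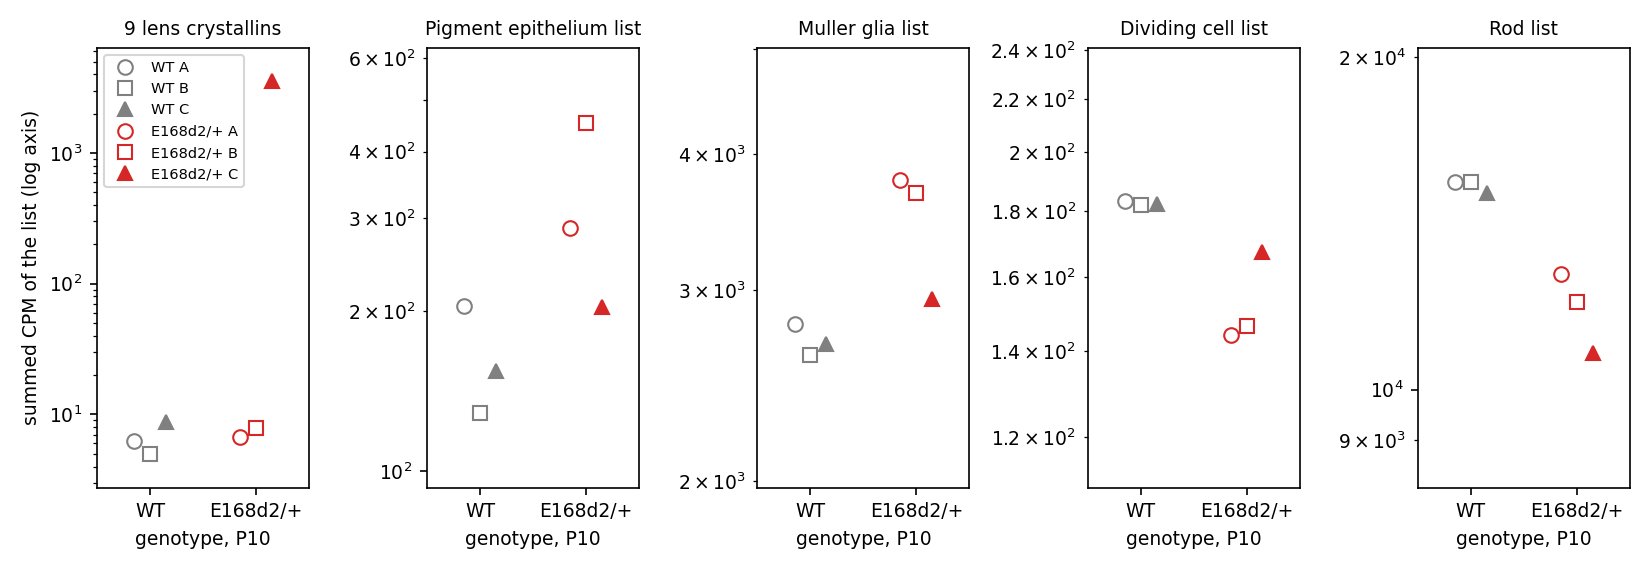
Summed CPM of 5 gene lists in each P10 library of WT and E168d2/+, each panel with its own log axis; circles, squares and triangles are replicates A, B and C. Replicate C of E168d2/+ is at 3530 CPM of lens crystallins, replicate B has the highest pigment epithelium sum (454 CPM), and replicate C lies nearest WT in the pigment epithelium, Müller and dividing cell panels but farthest in the rod panel.

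Replicate C often stood apart from A and B among the called genes. These genes were called with replicate C in the fit, so its place among them may follow in part from that choice. Its place over all tested genes was not counted. It was the farthest from WT of the 3 mutant libraries in 90 of the 130 genes called lower that are reported here, and the nearest to WT in 38 of the 60 called higher. The median log2 ratios of the called-lower genes were -1.23, -1.28 and -1.56 in replicates A, B and C, and those of the called-higher genes 1.27, 1.34 and 1.19. Tested without replicate C, 194 genes were called, 118 lower and 76 higher. Whether the place of replicate C and its lens RNA are linked was not tested. Rod-enriched and cone-enriched genes, as the study listed them from a published comparison of Nrl-deficient and WT retinas, give a wider view. Of 237 rod-enriched genes 37 were called lower and 6 higher (median -0.32), and of 380 cone-enriched genes 20 were lower and 13 higher (median 0.07). Over all genes 1.09% were called lower and 0.498% higher.

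Around the Crx locus calls were few. Of 82 tested genes within 5 Mb of Crx, 1 was called lower (Ppm1n, -1.04) and 1 higher (A930016O22Rik, 1.03). That was 2.44% in all, against 1.59% of all tested genes. Both calls were at the fold limit, and Ppm1n was under it without E168d2/+ replicate C (-0.86) and A930016O22Rik without E168d2/+ replicate A (0.83) or WT replicate C (0.88). The nearest, Crxos1 (0.03), Sepw1 (0.14), Gltscr2 (-0.02) and Ehd2 (0.16), did not pass the test. Other neighbours passed by FDR alone, such as Ccdc61 (-0.70), Slc1a5 (-0.59) and Pnmal2 (0.47).

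E168d2neo/+ and E168d2/d2 at P10 show how the genes of E168d2/+ stand among related genotypes. These comparisons share the WT libraries, so their values are given side by side. The log2 ratios to WT of Pde6h were -4.72 in E168d2/+, -1.99 in E168d2neo/+ and -7.30 in E168d2/d2. Those of Rcvrn were -3.54, -2.40 in E168d2neo/+ and -9.69 in E168d2/d2. For Opn1sw they were -2.13, -1.65 in E168d2neo/+ and -3.58 in E168d2/d2. These 3 genes were lowest with both alleles mutant and least reduced with the neo allele. Gnat1 (-2.16, -2.31 in E168d2neo/+ and -3.96 in E168d2/d2) and Ppara (-1.14, -1.31 in E168d2neo/+ and -4.18 in E168d2/d2) were at least as low in E168d2neo/+ as in E168d2/+.

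Tested directly against E168d2neo/+, with an FDR of 0.05 and no fold limit, E168d2/+ was lower in 62 genes (0.518%) and higher in 40 (0.334%) of 11967. Pde6h (-2.73, FDR 0.000245), Arr3 (-1.53, FDR 0.00244), Pde6c (-0.64, FDR 0.00244) and Opn1sw (-0.47, FDR 0.0354) of the cone list were lower in E168d2/+, and Cngb3 was higher (0.52, FDR 0.02). Of the rod list, Rcvrn (-1.14, FDR 0.0326) and Cngb1 (-0.41, FDR 0.0489) were lower and Rgs9bp was higher (0.47, FDR 0.0451). Elfn1 (-0.93, FDR 0.00464), Glp2r (-1.34, FDR 0.00146), Otop3 (-0.96, FDR 0.00842), Fscn2 (-0.90, FDR 0.0347) and Ano2 (-0.42, FDR 0.0326) were lower, and Col16a1 (1.09, FDR 0.00244), Atp4a (1.75, FDR 0.0148) and Rxrg (0.55, FDR 0.0247) were higher. Gnat1 (0.15, FDR 0.816), Slc24a1 (-0.10, FDR 0.835), Mpp4 (-0.20, FDR 0.306) and Nxnl1 (0.02, FDR 0.862) did not pass. The count depended on each library. It was 245 in place of 102 (0.852%) without E168d2/+ replicate C, 29 and 18 without replicates A and B, and 24, 35 and 16 without E168d2neo/+ replicates A, B and C.

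E168d2/d2 was lower than E168d2/+ in 902 genes (7.48%) and higher in 1123 (9.31%) of 12061, and the total of 2025 (16.8%) was 1290 without E168d2/d2 replicate C. With each library shifted by its median log-ratio, the split was 1139 lower and 801 higher. The further losses included rod genes that were nearer WT in E168d2/+. Cnga1 differed by -8.42, FDR 6.49e-09, although its ratio to WT in E168d2/+ was -0.46. Sag (-1.58, FDR 1.61e-06), Gnb1 (-1.27, FDR 1.21e-06) and Pde6b (-1.98, FDR 1.26e-08) were also lower with both alleles mutant. Rcvrn (-6.15, FDR 6.24e-08) and Gnat1 (-1.81, FDR 0.00486), which had fallen in E168d2/+, fell further.

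In some called genes the difference between E168d2/d2 and E168d2/+ ran against the difference between E168d2/+ and WT. All 131 genes called lower in E168d2/+ were nonetheless below WT in E168d2/d2. Of the genes called higher, 53 of 56 tested were above WT there. The genes were chosen against these same WT libraries, so this match in direction may follow in part from that choice. Over all genes the median log2 ratio of E168d2/d2 to WT was 0.10. Gnat2 was higher in E168d2/d2 than in E168d2/+ (0.68, FDR 0.000475), with log2 ratios to WT of -1.38 and -0.69. The neuronal receptor gene Rtn4rl2 (1.06, FDR 4.8e-05) and the DNA-binding gene Arid3c (1.29, FDR 0.0013) were also higher in E168d2/d2 than in E168d2/+. Both were called lower in E168d2/+ against WT. Gngt2, under the fold limit in E168d2/+, was higher in E168d2/d2 (log2 difference 3.18, FDR 4.66e-08) and stood 2.23 above WT there. Some genes called higher in E168d2/+ were lower in E168d2/d2 than in E168d2/+. Among them were Cngb3 (-0.66, FDR 4.23e-05), the inflammasome sensor Aim2 (-1.79, FDR 4.57e-06), Atp13a4 (-3.51, FDR 2.53e-05), Apobec2 (-1.37, FDR 2.65e-06) and Col4a3 (-0.74, FDR 0.04). Cngb3, for example, was at 68.1, 73.7 and 65.1 CPM in E168d2/d2. These comparisons share the E168d2/+ libraries with that against WT.

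**Figure D4:**
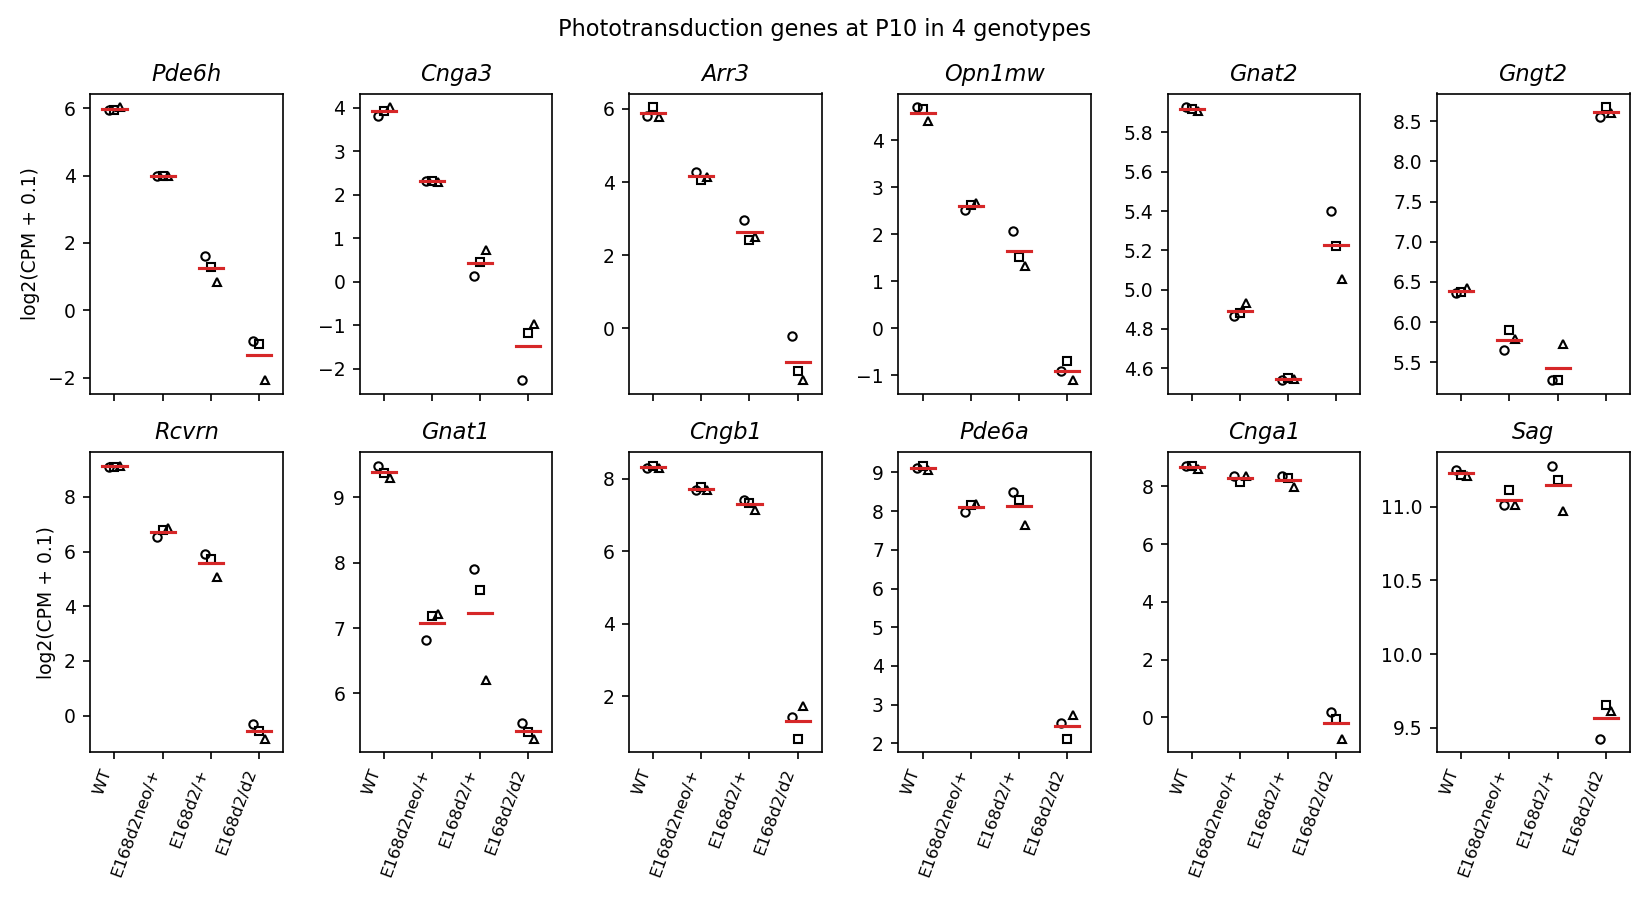
Log2(CPM + 0.1) of 12 phototransduction genes at P10 in the 3 libraries of each of 4 genotypes, with group means as red lines and each panel on its own axis. Pde6h, Cnga3, Arr3 and Rcvrn step down from WT through E168d2neo/+ and E168d2/+ to E168d2/d2, Gnat2 and Gngt2 are higher in E168d2/d2 than in E168d2/+, and Cnga1 and Sag drop mainly in E168d2/d2.

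At P21, in separate libraries, E168d2/+ was called lower than WT in 137 genes (1.15%) and higher in 51 (0.427%) of 11936. The total of 188 (1.58%) was 125 and 107 without E168d2/+ replicates A and C, and 115 without WT replicate C. Of the 131 genes called lower at P10, 123 were tested at P21, all 123 had a ratio below 0, and 74 were called lower. Of the 60 called higher at P10, 47 were tested, 43 had a ratio above 0, and 21 were called higher. The cone losses were present at both ages, for example Cnga3 at -3.48 and -3.30, Opn1sw at -2.13 and -1.98, and Pde6c at -1.17 and -1.08. Cngb3 (1.57 and 1.47) and Col16a1 (3.65 and 3.56) were higher at both ages. Rod genes called at P10 and not at P21 included Gnat1 (-0.62 at P21), Slc24a1 (-0.75) and Gucy2f (-0.89).

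The difference between ages was tested itself. Of 11595 genes, 276 (2.38%) had a lower ratio at P10 and 136 (1.17%) a higher one, at an FDR of 0.05, and differences are given as P10 minus P21. The difference was called for Arr3 (-1.76, FDR 0.0183), Aipl1 (-0.88, FDR 0.00839), Mpp4 (-0.92, FDR 0.00479), Lrit1 (-0.70, FDR 0.0271), Mdm1 (-0.65, FDR 0.0312) and Glp2r (-1.46, FDR 0.00604), all more reduced at P10. It was not called for Gnat1 (-1.53, FDR 0.0651), Slc24a1 (-0.93, FDR 0.11), Gucy2f (-0.56, FDR 0.253) or Pde6h (-2.08, FDR 0.0831). Among the gains, Rxrg (1.12, FDR 0.00631), Aqp4 (0.95, FDR 0.0352) and Aim2 (1.22, FDR 0.00315) had the higher ratio at P10 and were not called at P21, whereas Col4a3 was higher at P21 than at P10 (-1.82, FDR 0.00684). The total of 412 moved with single libraries. It was 802 without E168d2/+ replicate C at P10 and 858 without E168d2/+ replicate B at P21. It was 159 to 217 without any other P10 library, and 167 to 243 without E168d2/+ replicate C or WT replicate A, B or C at P21.

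**Figure D5:**
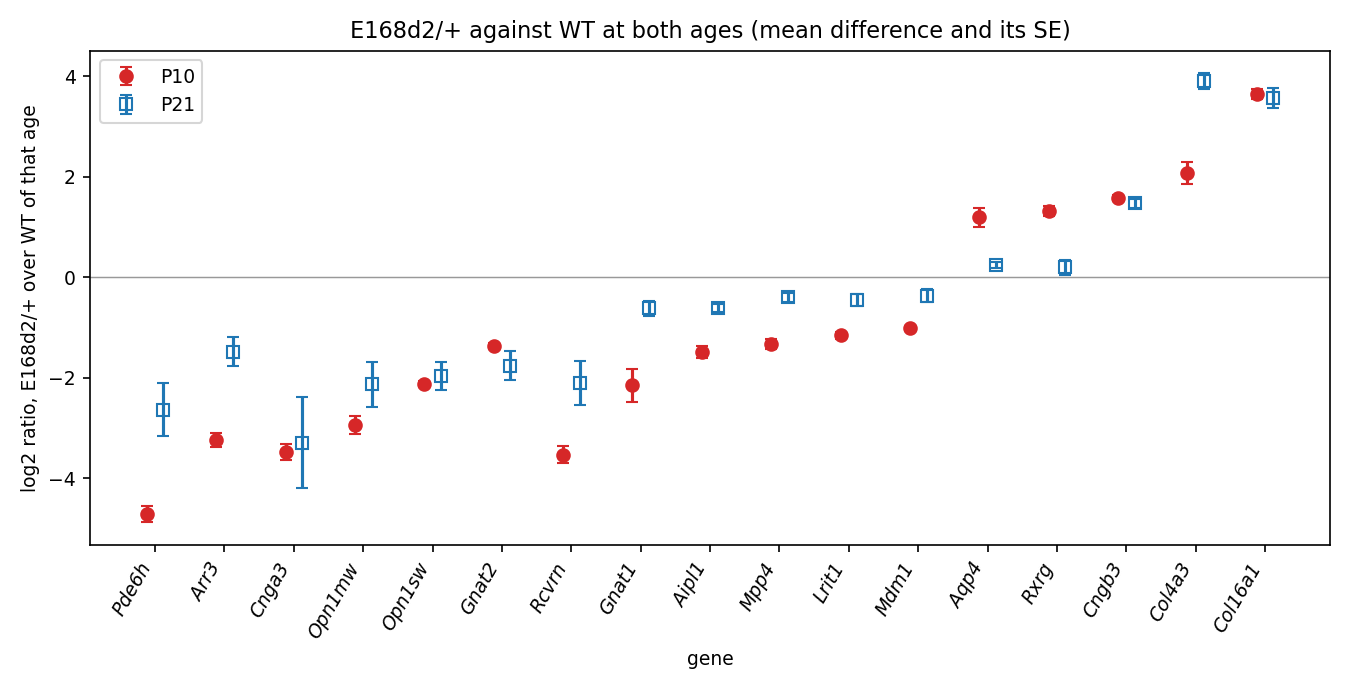
Log2 ratio of E168d2/+ over WT of the same age at P10 (filled circles) and P21 (open squares) for 17 genes. Bars are limma's standard errors of the ratio, from 3 libraries a group and a spread shared in part between genes. Cone genes such as Cnga3 are low at both ages (-3.48 and -3.30), Rxrg is raised at P10 (1.31) and near WT at P21 (0.19), and Col4a3 is higher at P21 (3.90) than at P10 (2.08).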

How the data were processed

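RNA of whole retinas was sequenced in 3 libraries per group. The study's methods give poly(A) selection with oligo-dT beads, and the labels name an mRNA kit and also Ribo-Zero depletion. Per the labels TopHat2 2.0.5 (mm9) and HTSeq 0.6.1p1 were used for alignment and counting, and the authors deposited CPM for 12573 genes, scaled to each library's reads on genes. The authors' own fold changes and p-values, made with edgeR 3.6.8, were not used.

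Values of log2(CPM + 0.1) were tested two-sided with limma 3.58.1 in R 4.3.3 (variance trend, Benjamini-Hochberg adjustment), in a separate fit of each pair of groups. Genes needed 5 CPM in all 3 libraries of either group. A call needed an FDR of 0.05 and a fold of 2, or the FDR alone between mutants and between ages. On data simulated for the P10 comparison, 200 genes were changed by 1.5 (log2). The filter left 11870 genes, and 99.5% of the changed genes among these were recovered. No count test was run. Promoters and the Crx codon were read from the mm9 genome and its GENCODE annotation. Sequences, counts and plots were made in Python 3.11.15 (pandas 2.3.3, numpy 2.4.6; figures with matplotlib 3.10.9).

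The comparison, its gene lists and its alternatives were chosen with earlier results of these data known. Named genes were members of lists written from general knowledge, the 10 largest falls and rises without overlap, and the called and uncalled genes nearest the fold limit. Other named genes were picked after their values were seen. Some genes and sequences are not reported here, and 20 symbols that had become dates are not named. The test between ages, and the choice to give values without E168d2/+ replicate B or C beside results, were added after the data were seen. Alternatives were other added constants, filters, scalings and fits, and leaving out libraries.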

Additional observations from a re-analysis of the deposited data

Results flagged for a closer look

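Among the genes named above, 14 differed between P10 and P21 in their log2 ratio of E168d2/+ to WT, by limma's test of the difference itself at an FDR of 0.05, with the libraries of both ages in a single fit and differences given as P10 minus P21. Photoreceptor genes that were more reduced at P10 were Arr3 (-1.76, FDR 0.0183), Mpp4 (-0.92, FDR 0.00479), Aipl1 (-0.88, FDR 0.00839), Lrit1 (-0.70, FDR 0.0271), Mdm1 (-0.65, FDR 0.0312) and Pias3 (-0.46, FDR 0.0394), together with Glp2r (-1.46, FDR 0.00604) and AI847159 (-1.75, FDR 0.0422). Arr3, for example, was at -3.25 at P10 and -1.49 at P21, lower than WT at both ages.

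Genes with the higher ratio at P10 were Rxrg (1.12, FDR 0.00631), Aim2 (1.22, FDR 0.00315), Aqp4 (0.95, FDR 0.0352), Rgnef (0.77, FDR 0.0448) and the rod complex member Rgs9bp (0.66, FDR 0.0183). Rgs9bp was near WT at P10 (-0.04) and lower at P21 (-0.71, not called). Col4a3 rose at both ages and was higher at P21 (-1.82, FDR 0.00684). The sources of WT mice at P10 and P21 may differ, and that cannot be told apart from age.

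The 9 lens crystallins, none of which passed the filter at P10, summed to 3530 CPM in E168d2/+ replicate C and to 4.96 to 8.82 CPM in the WT libraries.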

How the results depend on the processing

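No gene named as called at P10 changed sign in any alternative run, and 158 to 190 of the 190 kept their call, 158 with 1 CPM added, 166 without E168d2/+ replicate C and 170 to 190 in the others. The P10 count of 191 calls ran from 159 (1 CPM added) to 222 (no filter), with 189 under the replicate block, and libraries left out in turn gave 182 to 201 (118 to 145 lower, 52 to 76 higher). At P21 they gave 107 to 261 in place of 188 (64 to 188 lower, 43 to 73 higher).

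The comparison with E168d2neo/+ was the least stable. It called 1193 genes (563 lower, 630 higher) with all P10 groups in a single fit and 602 (297 lower, 305 higher) under the replicate block, 39 lower without a variance trend, and libraries left out gave 16 to 245 (14 to 112 lower, 2 to 133 higher). The single fit shares the spread of more libraries; otherwise the cause was not tested. E168d2/d2 against E168d2/+ gave 1732 higher in the single fit, and 1290 to 2419 genes with libraries left out (666 to 1061 lower, 624 to 1358 higher). The age difference gave 159 to 858 with libraries left out, 274 without a variance trend and 344 under the replicate block.

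Same-letter libraries did not all correlate above 0.1 in any comparison (deviations of A, B and C correlated at 0.01, -0.28 and -0.21 for E168d2/+ and WT at P10, 0.21, 0.11 and 0.09 at P21, -0.30, 0.38 and 0.21 for E168d2/+ and E168d2neo/+, and 0.16, -0.05 and 0.09 for E168d2/d2 and E168d2/+), so they were not taken as pairs. A count test was not run, because reads recovered from the CPM were not accepted as whole counts. Depth of 13.9 to 21.1 M reads limits genes near 0.142 to 0.216 CPM, such as Pax7 in E168d2/+.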

Other observations

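The library with the highest level differed between genes. Rgr, Dct and Ttr were highest in E168d2/+ replicate B, whereas Per3, Hlf, Dbp, Aqp4 and Glul were highest in replicate A and lowest in replicate C. In E168d2neo/+ the pigment epithelium list summed to 332, 383 and 385 CPM in replicates A, B and C, above the 129 to 204 CPM of WT. The 9 lens crystallins were at 41.2 CPM in E168d2neo/+ replicate B and 156 CPM in E168d2/d2 replicate A, above the WT range. The blood list summed to 364 CPM in E168d2/d2 replicate A, against 84.3 to 97.0 CPM in WT and 104 to 130 CPM in E168d2/+. Whether these values are linked to how the eyes were dissected was not tested.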
